A study of Homo sapiens with 3 samples.

Results

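USP and FBXO genes encode proteins that act on opposite sides of the ubiquitin system, and the peaks of the histone acetyltransferase EP300 assigned to them lay mostly at their promoters. The genes were found by symbol in the authors' peak tables, as USP or FBXO followed by a number and at most 1 letter. In all, 78 genes matched, 46 USP and 32 FBXO, of 22726 named genes with a peak. The group was selected on these data for having promoter peaks and few peaks elsewhere, so its promoter and non-promoter shares are given as a description with no test. All 78 had a peak in replicate 1 and 77 in replicate 2.

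Chromatin immunoprecipitation and sequencing mapped EP300 in H9, an established human embryonic stem cell line of wild type genotype. The cells were kept in a naive state in PXGL, an N2B27 medium with PD0325901 (a MEK inhibitor), XAV939 (a tankyrase inhibitor), Go 6983 (a protein kinase C inhibitor) and 10 ng/mL of human LIF, over mouse embryonic fibroblast feeders. There were 2 samples with the EP300 antibody, called replicates 1 and 2 here, and 1 input sample without antibody, which has no table here. There was a single culture condition and no treated group, and the labels do not say whether the replicates were separate cultures, so their spread may be technical only. Promoter peaks shared by both replicates were assigned to 6 of 6 naive state markers and 3 of 3 general pluripotency markers, but also to 4 of 5 fibroblast markers, so the peaks did not set the labelled cell type apart.

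Ubiquitin is a small protein that ligases attach to other proteins, often as chains that mark them for the proteasome. Most USP proteins are cysteine proteases that remove it again. FBXO proteins carry an F-box, through which they bind SKP1 and so bring their substrates to the CUL1 ligase known as SCF. EP300 is recruited to active promoters and enhancers by transcription factors and acetylates histones there.

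The sequences just upstream of 8 genes show the range of promoters in the group. They were chosen after the peaks were seen, among genes with a single RefSeq start, and run from 250 bp upstream to the base before the start, 5′ to 3′ on the gene's strand, from RefSeq on GRCh38.p14. Capitals mark matches, on either strand, to the motifs searched: GGGCGG (bound by SP1), CCGGAAG (ETS factors), the NRF1 palindrome, CCAAT (NFY), TGACGTCA (CRE), AAGATGGC (YY1), ATGCAAAT (POU factors) and CACGTG (E-box). The first 3 belong to genes with strong peaks: USP22 (chr17:21043012-21043261, minus strand), the deubiquitinase of the SAGA coactivator, USP21 (chr1:161159250-161159499, plus strand), which acts on histone H2A, and USP13 (chr3:179652790-179653039, plus strand), a paralog of USP5.
USP22: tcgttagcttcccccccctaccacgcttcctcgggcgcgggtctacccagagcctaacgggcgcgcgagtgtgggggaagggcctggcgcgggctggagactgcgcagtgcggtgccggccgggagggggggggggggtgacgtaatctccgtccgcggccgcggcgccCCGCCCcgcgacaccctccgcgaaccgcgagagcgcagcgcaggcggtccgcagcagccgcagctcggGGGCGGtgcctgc
USP21: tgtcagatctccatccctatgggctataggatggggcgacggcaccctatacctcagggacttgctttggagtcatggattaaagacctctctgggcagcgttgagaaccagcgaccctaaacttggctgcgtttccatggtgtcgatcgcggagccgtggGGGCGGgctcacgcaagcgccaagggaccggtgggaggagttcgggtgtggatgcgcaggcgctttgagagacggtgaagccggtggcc
USP13: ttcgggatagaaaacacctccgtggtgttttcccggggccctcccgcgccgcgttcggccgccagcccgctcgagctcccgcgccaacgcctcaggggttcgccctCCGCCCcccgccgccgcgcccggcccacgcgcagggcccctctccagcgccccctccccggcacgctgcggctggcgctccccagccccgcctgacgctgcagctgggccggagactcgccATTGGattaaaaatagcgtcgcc
FBXO15 (chr18:74147835-74148084, minus strand), known in mouse embryonic stem cells as a target of the pluripotency factors, held 3 kinds of motif. FBXO27 (chr19:39032550-39032799, minus strand), a receptor for glycoproteins, had a strong peak and none of the 8 motifs in this window.
FBXO15: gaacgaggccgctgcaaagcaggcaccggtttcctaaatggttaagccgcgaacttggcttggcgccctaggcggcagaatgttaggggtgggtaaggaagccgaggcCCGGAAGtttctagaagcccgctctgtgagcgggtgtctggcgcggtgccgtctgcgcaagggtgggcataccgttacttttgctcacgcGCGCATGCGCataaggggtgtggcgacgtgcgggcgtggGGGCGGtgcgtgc
FBXO27: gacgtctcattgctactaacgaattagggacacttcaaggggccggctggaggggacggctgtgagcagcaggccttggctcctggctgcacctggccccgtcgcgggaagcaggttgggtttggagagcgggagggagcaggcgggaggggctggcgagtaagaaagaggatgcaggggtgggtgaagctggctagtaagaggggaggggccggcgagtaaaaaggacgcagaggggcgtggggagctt
USP28 (chr11:113875573-113875822, minus strand) had a weaker peak at its start than further upstream, although this window held 5 GGGCGG matches. FBXO40 (chr3:121593129-121593378, plus strand), a muscle gene, had the summit of its strongest peak well downstream of the start. USP50 (chr15:50546667-50546916, minus strand) had no peak at all.
USP28: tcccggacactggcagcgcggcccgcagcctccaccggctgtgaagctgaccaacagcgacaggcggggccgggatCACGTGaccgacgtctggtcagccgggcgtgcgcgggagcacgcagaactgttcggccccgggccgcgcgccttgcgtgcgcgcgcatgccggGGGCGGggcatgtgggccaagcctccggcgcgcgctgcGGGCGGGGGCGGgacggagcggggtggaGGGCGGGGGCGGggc
FBXO40: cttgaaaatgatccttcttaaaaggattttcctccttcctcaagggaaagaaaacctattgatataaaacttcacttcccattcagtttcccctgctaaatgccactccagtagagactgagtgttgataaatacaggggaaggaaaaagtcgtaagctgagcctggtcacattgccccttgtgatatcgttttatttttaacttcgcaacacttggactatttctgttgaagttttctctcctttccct
USP50: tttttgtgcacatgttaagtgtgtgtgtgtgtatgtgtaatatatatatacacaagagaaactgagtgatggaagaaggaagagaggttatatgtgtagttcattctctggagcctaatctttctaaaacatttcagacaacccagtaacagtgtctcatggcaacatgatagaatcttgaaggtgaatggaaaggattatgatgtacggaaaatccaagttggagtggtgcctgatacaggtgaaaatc

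Per list, the 78 genes had 133 peaks in replicate 1 and 127 in replicate 2, once rows of 1 interval were joined. The authors annotated 111 (83.5%, Wilson 95% interval 76.2 to 88.8) and 107 (84.3%, 76.9 to 89.6) of them as promoter, which means within 3 kb of the nearest annotated start of any transcript. Most lay closer still, 101 and 98 of them within 1 kb. The remaining peaks were 10 and 6 in introns, 10 and 9 between genes, and 2 and 5 in exons or untranslated regions. The intervals cover counting error only.

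FBXO genes had the higher promoter share, with 91.3% of 46 peaks in replicate 1 and 93.5% of 46 in replicate 2 (mean 92.4% ± 1.54 SD, n = 2). For USP genes the shares were 79.3% of 87 and 79.0% of 81 peaks (mean 79.2% ± 0.21 SD, n = 2). Their Wilson intervals overlapped in both lists, and the difference was not tested. Among all other protein-coding genes the share was 61.6% ± 0.03 (SD, n = 2), and among all other named genes 53.2% ± 0.07. The FBXL and FBXW genes, which encode the other F-box families, were at 79.8% ± 4.96, the cytosolic ribosomal protein genes at 76.2% ± 4.61 and the orphan receptors of the GPR series at 59.5% ± 4.58. The shares of USP, FBXL, FBXW and ribosomal protein genes thus lay near each other and above those of the receptors.

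**Figure D1:**
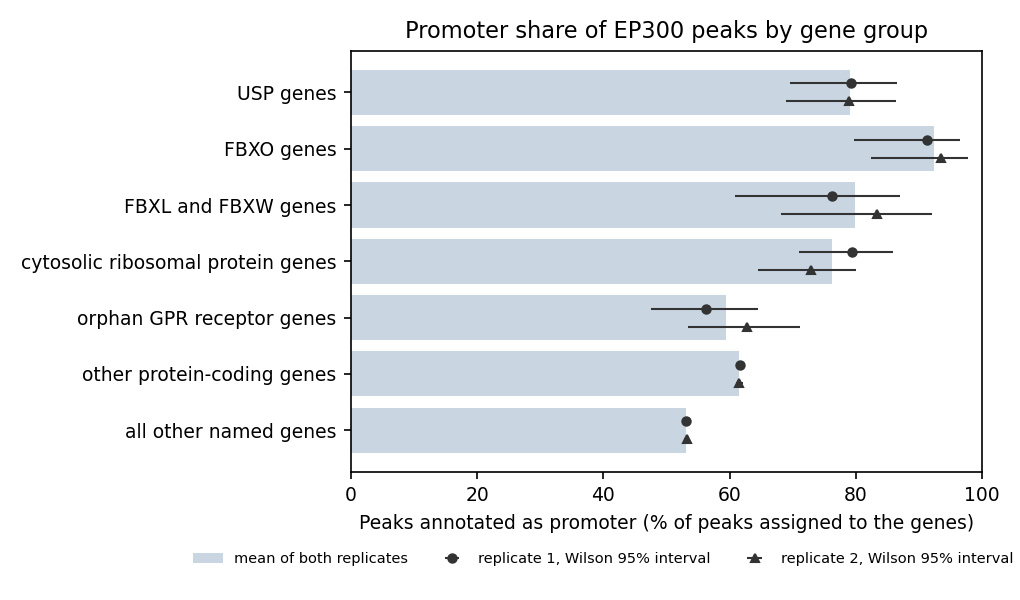
Promoter share of EP300 peaks (x axis, percent of the peaks assigned to each gene group) for 7 groups of genes (y axis). Bars are the mean of both replicates, circles and triangles are replicates 1 and 2, and whiskers are Wilson 95% intervals. FBXO genes sit at 92.4%, USP genes at 79.2% and all other named genes at 53.2%.

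Counted by gene, 76 of the 78 had a promoter peak that overlapped a peak of the other replicate, 44 of 46 USP genes and all 32 FBXO genes. Of 15173 other protein-coding genes with a peak in either list, 89.0% had such a promoter peak. A peak outside the promoter that was found again was assigned to 11 of the 78, 9 USP and 2 FBXO genes, against 27.3% of those other coding genes. Both counts use the property that the group was picked for, so nothing is read from them. Only promoter peaks were assigned to 59 genes in both lists, and 42 of these had a single peak in each. More than 1 promoter peak in both lists was assigned to 20 genes, led by USP2 with 6 and 4. The counts of 59, 42 and 20 were not made for other genes and serve as description only.

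Peaks at promoters were found again more often than the others, a difference that was not tested. In replicate 1, 94.6% of the promoter peaks and 54.5% of the 22 other peaks overlapped a peak of replicate 2. In the other direction it was 95.3% of promoter peaks and 65.0% of 20 others. Fold enrichment here is the authors' own value at a peak's summit. Among non-promoter peaks, the median was 4.42 (replicate 1) and 4.28 (replicate 2) for those found again, and 3.34 and 3.23 for those in 1 list only. Peaks that were not shared were thus weaker by median, but the ranges overlapped. In replicate 1, an unshared USP7 peak had 4.08 and a shared FBXO32 peak 2.34.

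Over the 76 genes with a promoter peak in both lists, the strongest ranged from 2.92-fold to 21.1-fold in replicate 1 and from 3.73-fold to 20.7-fold in replicate 2. The median over all genes with a promoter peak in a list was 9.22 in replicate 1 (77 genes) and 9.24 in replicate 2 (76 genes), against 8.68 and 8.86 for other coding genes. The middle part of the 76 genes, between the quartiles, spanned 6.72 to 11.8 and 7.09 to 12.1, which held the medians of other coding genes. The spread of other coding genes was not computed. Median widths were also near those of other coding genes, at 1271 and 1280 bp against 1252 and 1297 bp.

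The higher replicate exceeded the lower by a median of 1.15 times, and 41 of the 76 genes were higher in replicate 2. Fold enrichment differed by more than 1.5 times for 7 genes. USP37, a cyclin A deubiquitinase, differed most, at 3.36-fold in replicate 1 and 8.66-fold in replicate 2. The other 6 were FBXO3 (4.82 and 9.23), USP51 (2.92 and 5.09), USP48 (6.78 and 11.3), USP36 (9.79 and 15.8), FBXO43 (16.6 and 10.7) and USP13 (11.7 and 17.7). For USP37, FBXO3 and USP51 the values came from different summits in the 2 lists, so they compare unlike positions. The replicate 2 peak of each was wider and held 2 summits. Those used for USP37 were at chr2:218568069 in replicate 1 and chr2:218569070 in replicate 2. Only FBXO43 among the 7 was higher in replicate 1, and the order of such genes within the group is not fixed by these data.

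**Figure D2:**
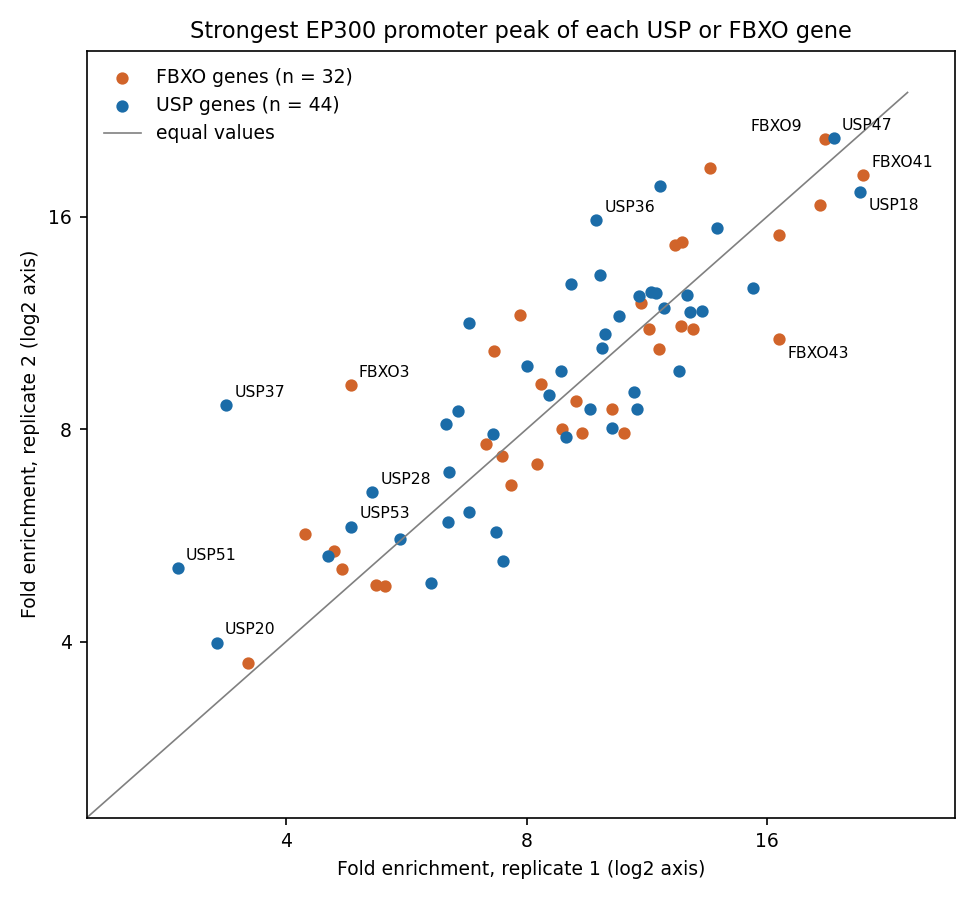
Fold enrichment of the strongest EP300 promoter peak of each gene in replicate 1 (x axis) and replicate 2 (y axis), both on log2 axes. Points are 44 USP and 32 FBXO genes and the line marks equal values. USP47, FBXO9, FBXO41 and USP18 sit at the top in both replicates, and USP37 lies farthest from the line.

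The highest promoter peaks were those of USP47, FBXO9, FBXO41, USP18 and FBXO28, ranked by the lower of a peak's percentiles in the 2 lists. USP47, which stabilises DNA polymerase beta, had 19.4-fold enrichment in replicate 1 and 20.7-fold in replicate 2, above 98.6% and 98.9% of the peaks of each list. FBXO9 had 18.9 and 20.6, and FBXO41 21.1 and 18.3. Next came USP18, the protease that removes the ubiquitin-like protein ISG15, at 20.9 and 17.4, and FBXO28 at 18.6 and 16.6. These genes lay in the top of both lists, and their order among themselves changed between replicates. FBXO39, USP44, FBXO22, FBXO8 and USP22 completed the 10 highest, between 12.5 and 16.6 in replicate 1 and between 12.7 and 18.8 in replicate 2.

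Among genes with a shared promoter peak, the strongest was lowest for USP51 (2.92 and 5.09), USP20 (3.27 and 3.98), USP37, FBXO46 (3.58 and 3.73) and FBXO45 (4.22 and 5.68). The USP20 values came from 2 different peaks. Its 3.98-fold peak was found in replicate 2 only, and the 3.27-fold peak overlapped a replicate 2 peak of 3.71-fold. The values of USP37, USP51 and FBXO46 came from different summits in the 2 lists. USP20 and FBXO46 were low in both lists. Neither exception without a shared promoter peak had a strong peak elsewhere. USP5, which takes apart free ubiquitin chains, had a single promoter peak of 2.41-fold in replicate 1, above 1.13% of that list, and no peak in replicate 2, where a peak of 5.00-fold near its start was credited to CDCA3. USP6, a hominoid gene related to USP32, had a peak of 3.13-fold in its 3' untranslated region in replicate 1 and of 3.02-fold in an exon in replicate 2. The 2 USP6 peaks did not overlap, and reads of USP6 and USP32 may not be told apart where their sequences are alike.

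Histone deubiquitinases had peaks for 8 of 9 listed genes, all 8 with a shared promoter peak, and medians of 10.4 and 12.5 over those 8. USP44, which acts on histone H2B, led with 13.9 in replicate 1 and 15.4 in replicate 2, followed by USP22 with 15.4 and 12.7. USP22 works in SAGA, and its paralogs USP27X and USP51 share its partners ATXN7L3 and ENY2. USP51 on the X chromosome was the lowest of the list at 2.92 and 5.09, while the other paralog, USP27X, had no peak of its own. USP21 was at 12.7 and 12.4, USP3 at 9.89 and 13.2, USP36 at 9.79 and 15.8, USP49 at 10.9 and 9.03, and USP16 at 7.32 and 5.71.

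Deubiquitinases of genome stability and the p53 pathway had shared promoter peaks for 10 of 10 genes, with medians of 7.87 and 9.16. After USP47 the highest was USP7, which deubiquitinates MDM2 and p53, at 11.9 in both lists. USP1, which acts on FANCD2 and PCNA, had 10.5 and 11.6. USP28, a stabiliser of MYC, was near the low end with 5.12 and 6.51, below its paralog USP25 (8.55 and 8.95) in both replicates. The list held 3 of the 11 genes with a shared peak outside the promoter: USP7, USP10 and USP28.

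Deubiquitinases of signalling and trafficking had shared promoter peaks for 12 of 12 genes, with medians of 8.01 and 8.26. USP18 stood well above the rest of this list, the next being USP34, a regulator of axin, at 13.3 and 11.8. Of the closely related pair that works with WDR48, USP46 was at 10.0 and 10.9 and USP12 at 6.40 and 6.95, so USP46 was higher in both replicates. Of the paralogs USP4 (10.2 and 8.02), USP15 (7.48 and 5.21) and USP11 (6.34 and 8.13), USP4 was above USP15 in both replicates and the range of USP11 overlapped both. USP9X, counted here on chromosome X, was at 5.56 and 5.58.

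The smaller USP lists included the gene with the lowest promoter peak, USP5. Among the genes of ubiquitin recycling and the proteasome, USP13 was at 11.7 and 17.7 and USP14, a proteasome-bound enzyme, at 11.1 and 12.3, while USP5 is the exception described above. The mitochondrial enzymes USP30, which counters parkin, and USP35 were at 10.99 and 9.60 in replicate 1 and both at 8.54 in replicate 2. Among proteins usually classed as inactive, USP39, a splicing factor, was at 9.96 and 10.4, USP54 at 8.01 and 9.83, and USP53 at 4.82 and 5.82.

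F-box genes of the cell cycle had shared promoter peaks for 4 of 4, with medians of 10.8 and 9.99. FBXO5, the APC/C inhibitor also called EMI1, had 12.3 in replicate 1 and 14.6 in replicate 2, and its meiotic paralog FBXO43 had 16.6 and 10.7. Which of the pair was higher changed between replicates. FBXO31 and FBXO4, both linked to cyclin D1 turnover, had 8.33 and 9.25, and 9.37 and 7.91.

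F-box genes with a sugar-binding type of domain had peaks for 4 of 5 genes, all 4 with a shared promoter peak. FBXO27 (11.1 and 12.1) and FBXO17 (12.9 and 11.1) were above FBXO2 (7.45 and 7.33) and FBXO6 (4.70 and 5.07) in both replicates. The genes of muscle and their paralogs gave 4 of 4, with FBXO30 at 7.27 and 10.3 and FBXO32, the muscle atrophy ligase atrogin-1, lowest at 5.31 and 4.79. Those FBXO32 values were at the start of a short transcript inside the gene. The peak at the start of its longer transcript had 2.61 and 2.95. FBXO25, the paralog of FBXO32, was at 8.24 and 7.14. A promoter peak of EP300 was thus called at muscle genes too.

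The last F-box list, of varied functions, gave 7 of 7 with no shared peak outside the promoter. FBXO22, which targets the histone demethylase KDM4A, was highest at 13.6 and 18.8, followed by FBXO15 at 12.5 and 11.2. FBXO7, a Parkinson disease gene, was at 11.4 and 11.1, and FBXO45 was lowest. Outside the role lists stood 19 genes, among them FBXO9, FBXO41, FBXO28, FBXO39 and FBXO8.

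The partners of these proteins were read from lists of their own. In the SCF core, 4 of 6 genes had a shared promoter peak: SKP1 (13.2 and 10.1), CUL1 (10.8 and 14.4), RBX1 (9.37 and 9.91) and CAND1 (11.2 and 13.9). COPS5 had a peak in replicate 2 only, and no peak was assigned to NEDD8. Of the partners of deubiquitinases, WDR48, ATXN7 and ATXN7L3 had shared promoter peaks and WDR20 and ENY2 no assigned peak. Deubiquitinases of other families gave 24 of 30, with OTUB2 (25.4 and 27.3) and STAMBPL1 (23.5 and 24.2) above every USP and FBXO gene, and 6 of the 30 had a shared peak outside the promoter.

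The exact position of the strongest promoter peak could be read against RefSeq starts. The promoter table had entries for 68 of the 87 coding USP and FBXO genes, with 91 starts. Summits lay downstream of the nearest start for 47 of 57 genes (82.5%) in each list, by a median over all 57 of 253 bp in replicate 1 and 223 bp in replicate 2. Among other coding genes the medians were 210 and 209 bp, and 72.9% and 72.6% lay downstream. Within 500 bp of a start were 52 of the 57 in each list. Of 56 genes with a value in both lists, 2 (FBXO7 and USP39) had summits nearest to different starts in the 2 replicates. The FBXO7 summits lay in overlapping peaks and the USP39 summits in separate peaks. For the other 54 the summits were a median of 34.5 bp apart, and within 100 bp of each other for 48.

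USP47 was an exception with a summit upstream, at -389 bp in replicate 1 and -436 bp in replicate 2. USP8 (-630 and -639) and FBXO8 (-383 and -424) also had theirs upstream. FBXO40 (810 and 897 bp) and USP7 (894 and 887 bp) lay far downstream, and the USP32 summit 2493 and 2403 bp inside the gene was the farthest. For 3 genes the summits of the replicates were far apart and on different sides of the same start: USP46 (289 and -250 bp), USP38 (333 and -258) and FBXO46 (372 and -496).

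**Figure D3:**
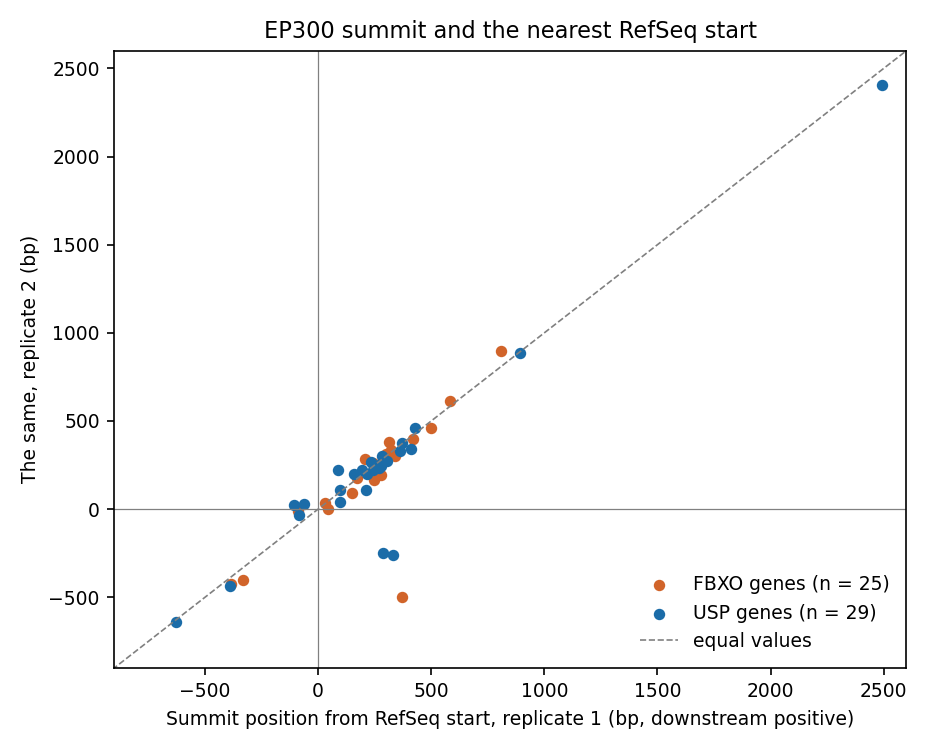
Position of the summit of the strongest promoter peak from the nearest RefSeq start of the gene in replicate 1 (x axis, bp) and replicate 2 (y axis, bp), with downstream positive, for 29 USP and 25 FBXO genes with the same nearest start in both. The dashed line marks equal values. Most points sit on the line within 500 bp downstream, USP32 sits at 2493 and 2403 bp, and the 3 points farthest off the line have summits on different sides of the start.

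A peak is credited to the gene with the nearest start, and at shared starts this decides which gene is counted. Within 1 kb of a RefSeq start, whatever gene was credited, 65 of the 68 genes had a peak in both lists, and the 3 without were USP6, USP29 and USP50. For 8 of the 65 the strongest such peak was credited to a neighbour in both lists. Neither count was made for other coding genes, so nothing about the group is read from them. The peak at the USP32 start was credited to C17orf64 and reached 13.96 and 15.37, far above the 4.52 and 5.28 of the peak credited to USP32. At the USP20 start a peak of 7.10 and 9.95 was credited to C9orf78. The strongest peaks credited to USP20 itself, 3.27 and 3.98, lay further into the gene. The low ranks of USP20 and USP32 therefore depend on the assignment. At 1 start of FBXO31, a peak credited to MAP1LC3B reached 20.2 and 20.8, against 2.71 and 4.13 for the FBXO31 peak there. The strongest peak credited to FBXO31, 8.33 and 9.25, was at another of its starts. For FBXO46 the credit changed between lists, since a peak credited to MEIOSIN (3.84 and 3.20) was above its own (3.58 and 3.73) in replicate 1 only.

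Of the 87 coding genes, 10 had no peak of their own, and 5 of these were at a start with a peak credited to a neighbour. At FBXO36 the peak went to TRIP12 (9.67 and 12.6), at FBXO48 to APLF (9.40 and 11.3), and at USP19, an enzyme of endoplasmic reticulum quality control, to LAMB2 (7.46 and 8.81). At FBXO44 it went to FBXO2 (7.45 and 7.33), and at USP27X to the divergent transcript USP27X-DT (5.92 and 6.49). The other 5, FBXO16, USP26, USP29, USP50 and USP9Y, had no peak within the gene or 1 kb around it in either list. USP9Y, related to USP9X, is on chromosome Y, and whether the cells carry that chromosome was not examined here. Why USP9Y had no peak was not tested.

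Divergent coding starts within 1 kb on the opposite strand were found for 12 of 68 genes (17.6%), against 12.3% of 15743 other coding genes. The median fold enrichment at the start was 9.64 and 10.4 for the 12, and 9.22 and 9.03 for the 53 others with a peak in both lists. At such starts, peaks of both genes cannot be told apart.

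The group's genes are long, with a median of 53.9 kb against 24.1 kb for coding genes, yet few had a peak inside the gene. Away from promoters, each list had a peak inside the gene for 7 of 86 genes (8.14%), whatever gene it was credited to, against 17.0% of 19884 coding genes. Overlap of the peaks was not required here, and those of FBXO31, FBXO36 and USP6 did not overlap between lists. Of the 16 genes over 100 kb, such as USP34 at 283.6 kb, only USP15 and USP32 had one in both lists. USP34 had one in replicate 2 only (3.19-fold), and USP9X in replicate 1 only (3.68-fold). The choice of genes with few non-promoter peaks bears on these counts too.

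USP53, a protein of cell junctions, had the strongest peak outside a promoter. It lay in an intron at chr4:119279311-119280346 in replicate 1, with 15.9-fold enrichment, and at chr4:119279359-119280289 in replicate 2, with 19.2. These values exceeded 96.7% and 98.4% of all peaks, and were more than 3 times those of the USP53 promoter peak (4.82 and 5.82). By the authors' table the peak was 11.9 and 12.0 kb from the nearest annotated start, but its summit was 67.2 kb downstream of the RefSeq start in both replicates, so the nearer start is that of another transcript.

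USP32 and USP28 were the other 2 genes whose peak outside the promoter was stronger than the promoter peak in both lists. The USP32 intron peak (chr17:60384204-60385454 in replicate 1) had 7.83 and 6.11 against 4.52 and 5.28, with the limit on its start given above. Upstream of USP28, a peak at chr11:113884186-113885508 in replicate 1 and chr11:113884043-113885521 in replicate 2 had 6.98 and 7.17 against 5.12 and 6.51. Its summit was at -9.42 and -9.23 kb, upstream of the start whose sequence is printed above.

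USP18 had the most peaks outside the promoter that were found again, 3 in its introns. The strongest, at chr22:18163935-18165199 in replicate 1, had 10.2 and 11.5, with its summit at the same base in both lists. The next had 7.32 and 6.31, and the third 3.66 and 3.64. The gene named USP41 in the tables, which RefSeq lists as the pseudogene USP41P, is a near-identical copy of part of USP18 on the same chromosome. It had promoter peaks of up to 12.8 and 11.7, and reads from the copies may have been split or placed on either, so the values of both are uncertain. Without USP18 and USP41 the promoter share was 86.4%.

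The other shared peaks outside promoters were weak. USP7 had 2 peaks of this kind in replicate 1 and 4 in replicate 2, but a single pair overlapped, at 4.34 and 4.58. The peaks upstream of USP10 (4.51 and 3.49), USP22 (4.09 and 3.54) and FBXO27 (3.97 and 3.94), in an intron of USP15 (3.28 and 3.46) and past the 3' end of FBXO32 (2.34 and 3.88) all stayed under 5. In each of these 6 genes the strongest promoter peak was higher. For FBXO32 that peak was at a short transcript inside the gene. The peak at the start of its longer transcript had 2.61 and 2.95, below the peak past the 3' end in replicate 2. USP2 was a border case, since overlapping peaks were 2870 bp from a start and called promoter in replicate 1 (3.81) but 3456 bp away and called 3' untranslated region in replicate 2 (4.28).

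Without a replicate to compare with, replicate 2 alone put a peak outside the promoter at 14 genes and replicate 1 alone at 16, in place of 11. With a fold enrichment of at least 5 required, 4 genes kept one: USP18, USP28, USP32 and USP53.

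**Figure D4:**
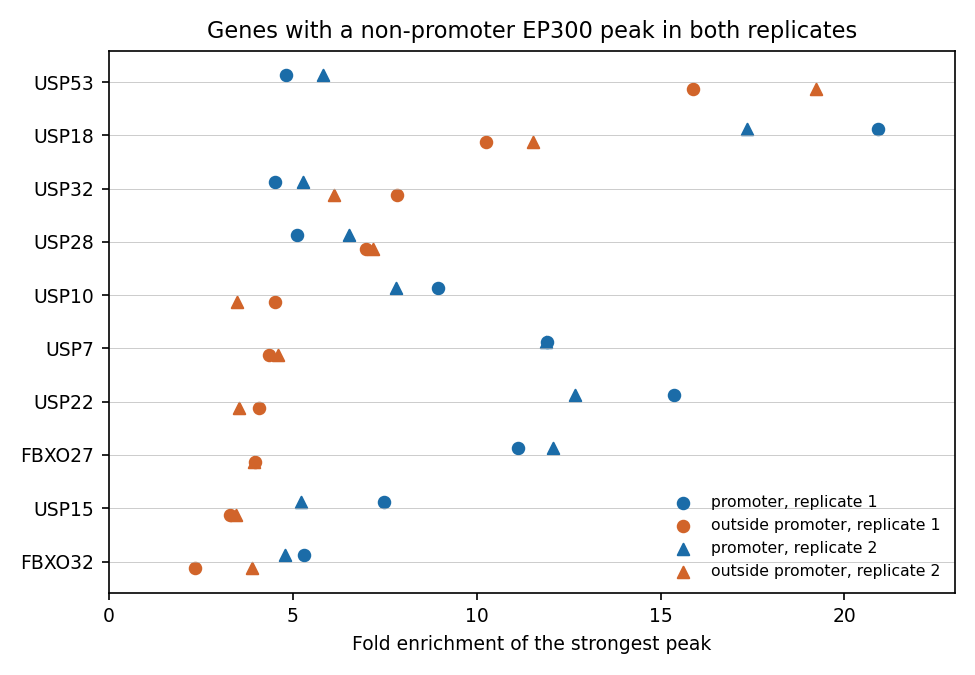
Fold enrichment (x axis) of the strongest promoter peak (blue) and the strongest peak outside the promoter (orange) for the 10 genes (y axis) with a shared peak outside the promoter, leaving out the border case USP2. Circles are replicate 1 and triangles replicate 2. Orange lies to the right of blue in both replicates for USP53, USP32 and USP28.

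Promoter sequence was not itself used to choose the genes, but promoter peaks were. Within the group, the windows without a peak were mostly poor in CpG, so the sequence values are not separate from that choice. Over the 91 windows, from 250 bp upstream to 50 bp downstream of a start, the median was 28 CpG dinucleotides, against 21 over 22040 windows of coding genes and 14 over all 34961. GGGCGG was present in 71.4% of the windows, against 56.2% of coding and 45.0% of all windows. CCGGAAG was in 23.1%, against 12.8% and 10.3%, and CCAAT in 24.2%, against 34.7% and 34.6%. The first 2 motifs were thus more frequent and CCAAT less frequent than over coding windows, as a description of letters with no test, and GGGCGG and CCGGAAG are rich in the letters that also make up CpG.

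The other motifs were rare. AAGATGGC was in 6.59% of the windows against 3.53% of coding ones, CACGTG in 4.40% against 8.36%, TGACGTCA in 2.20% against 2.26%, the NRF1 palindrome in 2.20% against 1.50%, and ATGCAAAT in 1.10% against 1.65%. FBXO15 held 1 of the NRF1 matches, and USP21 held a match to AAGATGGC outside its printed part. The printed windows hold 36 CpG for USP22, 34 for USP13, 38 for USP28 and 26 for FBXO15, but 3 for FBXO40 and 1 for USP50. At FBXO40 a peak of 6.38 and 5.83 reached into this CpG-poor window, and its stronger peak of 7.65 and 6.67 lay downstream of it. FBXO40 was an exception. Most other windows this poor in CpG, such as those at further starts of FBXO11 (1 CpG) and FBXO24 (0), had no peak within 1 kb.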

How the data were processed

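EP300 ChIP-seq peaks of 2 samples of naive H9 cells were analysed, 1 deposited table each. The submitters' processing notes name fastp 0.19.11 and GRCh38. The aligner, the peak caller and duplicate handling are not given in the sources, and since no read counts are in the tables, depth is unknown. Per the file headers, each row is a summit with the authors' signal value, a fold enrichment (a ratio), and -log10 p and q values, and the largest deposited q was 0.0497 and 0.0498. The deposited score was not used. By the table names, peaks were called per sample against input and annotated with ChIPseeker.

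The tables hold 81061 and 80208 rows. Rows of equal interval were joined, keeping the highest fold enrichment, which left 65276 and 64896 peaks on chromosomes 1 to 22 and X. Sharing between replicates means an overlap of 1 bp or more, and a percentile is the rank of fold enrichment within a list. Intervals on shares are Wilson 95% intervals (statsmodels 0.14.6). The overlap code was tested on simulated data. Gene positions, starts and promoter sequences are from RefSeq (GRCh38.p14), and motifs were counted on both strands, where overlapping matches can share bases.

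Genes named are the 10 highest and 5 lowest by strongest promoter peak, among genes with a shared promoter peak, and the leaders of each role list. They also include listed paralogs, genes without a shared promoter peak or without any peak, and genes with most shared peaks elsewhere. Others were chosen after their values were seen. The members and lists were chosen with earlier results of these data known.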

Additional observations from a re-analysis of the deposited data

How the results depend on the processing

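The tables hold only peaks past the authors' threshold, and they give no depth for a peak that is missing. Requiring an overlap of 50% of the shorter peak changed none of the 7 results recomputed. No value changed direction. The promoter share of 83.9% became 91.5% with a -log10 q of at least 5, 94.1% with a fold enrichment of at least 5, 76.6% with a promoter window of 1 kb, 86.1% with each summit counted, 79.2% for USP and 92.4% for FBXO genes alone, and 86.4% without USP18 and USP41, and without either replicate it was between 83.5% and 84.3%. Its difference of 30.7 points from all other named genes became 28.0, 23.6, 33.3, 29.8, 26.0, 39.2 and 33.3 in the same order, and 22.3 points against other protein-coding genes. Leaving out USP18 and USP41 and the comparison with coding genes were added after seeing the data. The 76 genes with a shared promoter peak were 74 under the stricter q and 65 under the fold minimum, and 44 USP and 32 FBXO genes by family. The 11 genes with a shared peak outside the promoter became 6 under the stricter q, 4 under the fold minimum and 2 among FBXO genes alone, since fewer peaks or genes enter. The median promoter fold enrichment of 9.23 became 9.37 under the stricter q, 9.84 under the fold minimum, 9.28 with the 1 kb window, 9.58 on autosomes, 9.27 for FBXO genes and 9.12 without USP18 and USP41. Shared peaks outside promoters numbered 0.160 per gene, and 0.0855 under the stricter q, 0.0676 under the fold minimum, 0.186 with each summit counted, 0.228 for USP genes, 0.0625 for FBXO genes and 0.125 without USP18 and USP41. Leaving out a replicate gave 0.260 to 0.282, since overlap could then not be required. The share of peaks found in both replicates, 89.3%, became 93.9%, 91.8%, 91.4%, 85.8% and 95.7% under the stricter q, the fold minimum, each summit counted, USP and FBXO genes alone, and it cannot be computed with a replicate left out.

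No paired analysis was possible because all samples with peaks belong to 1 group.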
